A study of Mus musculus with 8 samples.

Results

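The genes described here encode the proteins of the mitochondrial ribosome, and they were taken as every gene of the table whose symbol is Mrpl or Mrps followed by a number. The rule found 77 of 14853 genes. The rule uses names only. RNA was sequenced from undifferentiated spermatogonia of the mouse testis, the germ cells that include the spermatogonial stem cells, as 4 TERTCreER/flox samples and 4 TERTCreER/+ samples that the titles call TERT-del and TERT-hetero. All mice were C57BL/6, 8 to 12 weeks old, and carried the tamoxifen-dependent recombinase CreER at one allele of Tert, the gene of the telomerase reverse transcriptase, together with a tdTomato reporter at Rosa that Cre switches on. The groups differ in the other Tert allele, which carries loxP sites in CreER/flox mice and normal in CreER/+ mice. All received tamoxifen, and 7 days later cells with high MCAM, no KIT and tdTomato were sorted, so both groups hold Cre-active cells and neither is wild type. The comparison asks which RNAs differ soon after the remaining Tert allele is deleted.

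Mitochondria keep a ribosome of their own, which translates the few mRNAs of mitochondrial DNA into core subunits of the respiratory chain. Its large subunit (Mrpl genes) joins amino acids, and its small subunit (Mrps genes) binds and decodes mRNA. All of its proteins are encoded in the nucleus and imported. Many have counterparts in bacterial ribosomes, whereas the rest were added during the evolution of mitochondria. In spermatogonia, which are known to rely largely on glycolysis, respiration increases as cells leave the stem cell state.

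The data are the authors' comparison of the groups, in which each gene has a mean normalized count over all libraries, a log2 fold change of CreER/flox over CreER/+ with its standard error (SE), and a two-sided Wald p adjusted over all 14853 genes. A gene is called here at an adjusted p under 0.05. Values per library and library totals were not used here, so no spread between samples of a group can be shown, and the SE is the only error. The direction rests on the table's name, which sets flox against WT. Tert itself stood at 0.29 on the log2 scale (SE 0.26, adjusted p 0.595) per the authors' deposited table, which does not settle the direction. All 22 listed genes of undifferentiated spermatogonia had a row in the authors' deposited table, with mean counts from 14.9 (Utf1) to 5143 (Zbtb16) and a median of 583, against 192 over all genes. Of them 8 had values above 0, at a median of -0.05, and none was called. All 10 listed genes of differentiating spermatogonia also had a row in the authors' deposited table, with mean counts from 68.9 (Neurog3) to 681 (Sohlh2) and 93.1 for Kit, whose protein the sort excluded; 5 had values above 0, at a median of -0.01, and none was called. The Sertoli cell genes Amh and Fshr and the Leydig cell genes Cyp17a1 and Insl3 had none, while all 24 listed spermatid genes had one and lay below 0, at a median of -1.06 on the log2 scale and with 9 called lower in the authors' deposited table. The lowest mean count of any row was 10.4, so the lack of a row does not show the absence of an RNA. Of the other listed cell types, 7 of 12 Sertoli genes had a row, with 1 called higher (Trf), as did 1 of 6 Leydig, 3 of 6 myoid (1 called lower, Actg2), 6 of 7 endothelial, 3 of 8 leukocyte and 5 of 6 erythroid genes. The part of these cells in the members' values was not tested. In sorted bulk samples, fewer cells of a type and less RNA per cell cannot be told apart.

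The promoters of the 4 members with the smallest p are shown first, since one of them was the only member called and together they carry each of 4 motifs counted later. Sequences are from RefSeq (GRCm38.p6), run 5′ to 3′ on the strand of the gene and span 250 bases before to 50 bases after the annotated start. Capitals mark matches, on either strand, to NRF1, ETS (CCGGAAG), YY1 (AAGATGGC) or SP/KLF (GGGCGG) motifs, which are named for transcription factors known to bind them. Mrps14 (chr1:160194965-160195264, plus strand) holds 3 SP/KLF matches. Mrpl17 (chr7:105811038-105811337, minus strand) holds 1 NRF1, 1 ETS and 4 SP/KLF matches, of which the ETS match overlaps an SP/KLF match. Mrpl18 (chr17:12916042-12916341, minus strand) holds 1 ETS and 1 SP/KLF match. The window of Mrpl18 lies inside its annotated gene (12911345 to 12917787), so the start used is not the outermost end of the gene. Mrps24 (chr11:5707652-5707951, minus strand) holds 1 YY1 match, after the start, and 2 adjacent SP/KLF matches.
Mrps14: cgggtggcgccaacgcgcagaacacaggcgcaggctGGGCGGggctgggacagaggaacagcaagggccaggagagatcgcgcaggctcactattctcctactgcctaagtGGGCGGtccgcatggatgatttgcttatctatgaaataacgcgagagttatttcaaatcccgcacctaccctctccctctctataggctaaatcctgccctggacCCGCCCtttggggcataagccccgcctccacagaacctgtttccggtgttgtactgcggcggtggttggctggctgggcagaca
Mrpl17: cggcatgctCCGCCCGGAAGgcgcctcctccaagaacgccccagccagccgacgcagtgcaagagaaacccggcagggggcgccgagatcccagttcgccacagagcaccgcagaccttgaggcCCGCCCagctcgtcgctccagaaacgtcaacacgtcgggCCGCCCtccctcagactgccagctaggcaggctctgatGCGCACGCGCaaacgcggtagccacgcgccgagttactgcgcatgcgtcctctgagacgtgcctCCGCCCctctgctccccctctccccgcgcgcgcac
Mrpl18: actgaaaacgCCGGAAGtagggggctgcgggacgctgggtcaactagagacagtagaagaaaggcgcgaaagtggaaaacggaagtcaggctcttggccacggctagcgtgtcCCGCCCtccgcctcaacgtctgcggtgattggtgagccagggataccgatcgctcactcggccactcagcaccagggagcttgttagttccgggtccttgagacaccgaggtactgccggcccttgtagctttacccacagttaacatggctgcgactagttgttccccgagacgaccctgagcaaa
Mrps24: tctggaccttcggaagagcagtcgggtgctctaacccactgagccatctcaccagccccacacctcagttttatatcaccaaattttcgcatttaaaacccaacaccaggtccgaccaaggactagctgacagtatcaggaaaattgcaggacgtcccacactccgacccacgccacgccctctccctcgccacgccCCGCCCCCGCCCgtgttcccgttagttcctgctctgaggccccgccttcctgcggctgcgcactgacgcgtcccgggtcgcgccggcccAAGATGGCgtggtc

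Nearly the whole mitochondrial ribosome was measured. RefSeq lists 78 protein-coding genes with such names, and all 78 had a row. The one outside the rule is Mrpl32, whose row has no symbol. The 6 RefSeq pseudogenes with such names had no row, and no member shared its values with another row. One member, Mrps36, is known as a subunit of the oxoglutarate dehydrogenase complex rather than of the ribosome, which leaves 50 large-subunit and 26 small-subunit genes. Mrps30 and Mrps18a, whose names place them in the small subunit, are counted with the large subunit, where their proteins sit.

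Of the 77 genes, 1 was called higher in CreER/flox cells and 0 were called lower in the authors' deposited table. Over all genes, 1.94% were called higher and 3.42% lower, so 1 called member of 77 is near the background. On the authors' scale, log2 fold changes of members were mostly small and above 0, a direction that depends on where 0 is set. They were above 0 in 65 of 77 (84.4%), against 50.1% of all genes, and their median was 0.12, or 1.09-fold, against 0.00071 for all genes, but with the count-weighted mean of all genes set to 0 the median was -0.26 and 4 of 77 were above 0. That centring lowers every value by 0.38 and counts 1 rRNA measurement 6 times, since 6 rRNA rows of the table hold identical values. With rows of identical values counted once, it lowers every value by 0.15, the median was -0.02 and 32 of 77 were above 0. Neither centring alters how members stand relative to other genes. Counts of values above 0 in parts of the family and in other lists are on the authors' scale unless stated, and depend on the zero point likewise. On the authors' scale, the interquartile range was 0.06 to 0.21, and the whole range ran from -0.35 (Mrpl27) to 0.46 (Mrps34). At an unadjusted p under 0.05 there were 9 members on the higher side and 0 on the lower side, against 9.15% and 10.5% of all genes.

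**Figure D1:**
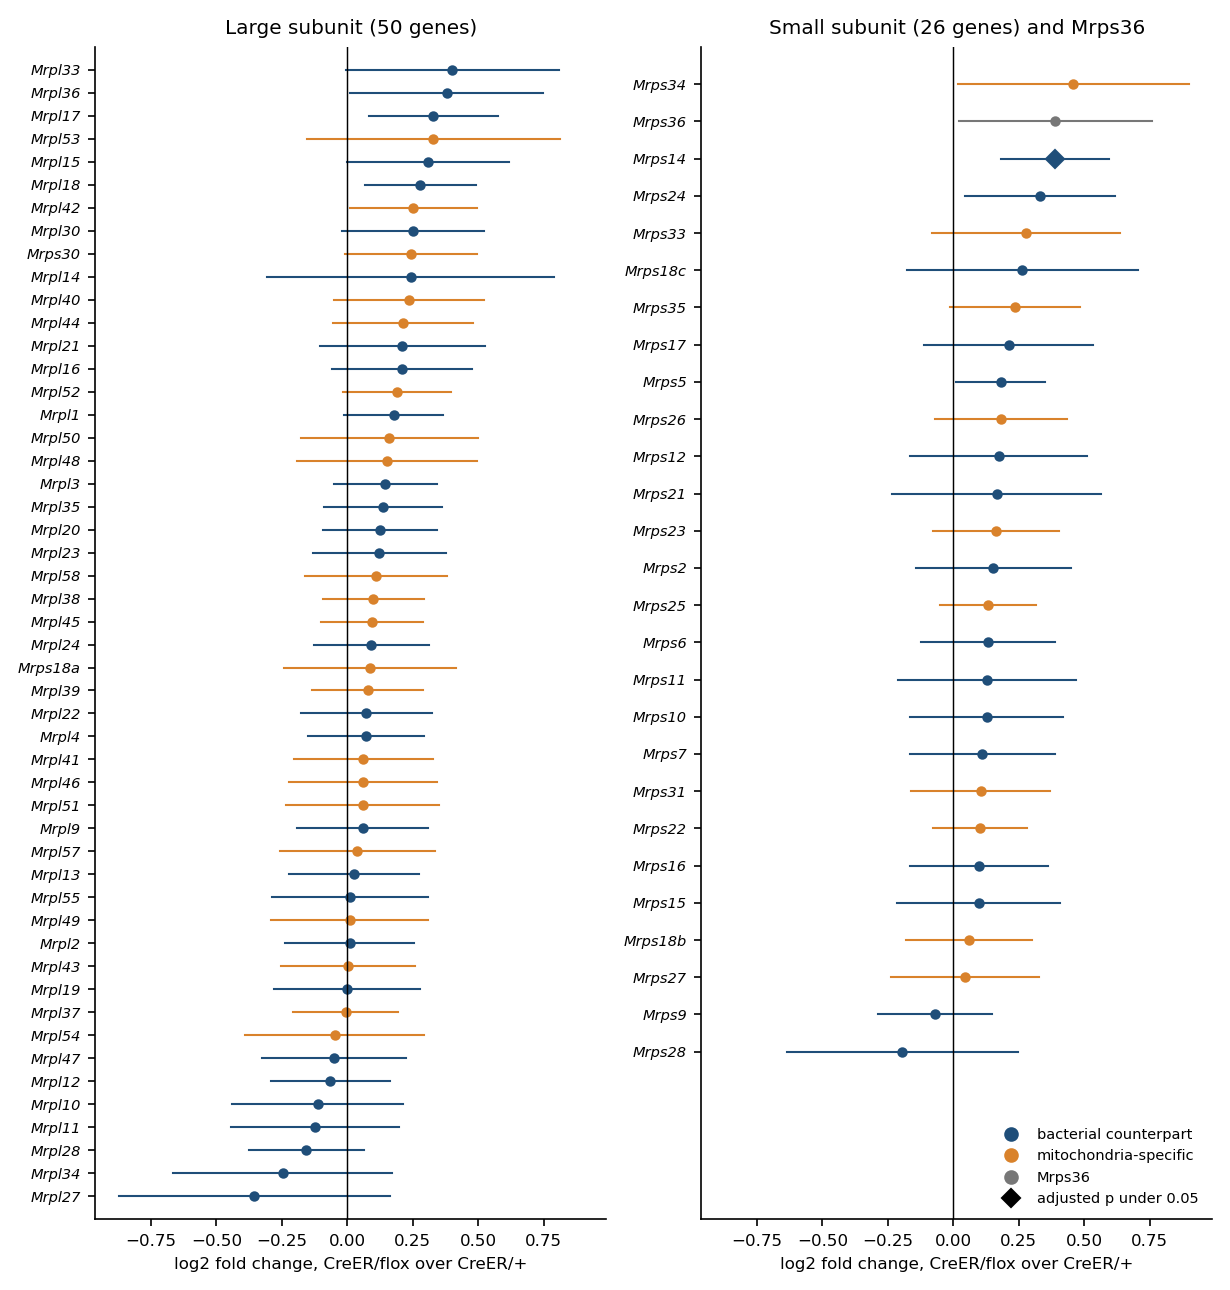
Log2 fold change of CreER/flox over CreER/+ for each mitochondrial ribosomal protein gene, with its 95% interval, by subunit. Colours separate proteins with a bacterial counterpart, mitochondria-specific proteins and Mrps36, and the diamond marks the 1 called gene, Mrps14. Of the 77 points, 65 lie above 0 on the authors' scale (32 with the count-weighted mean of all genes at 0 and identical rows counted once, 4 with every row counted). On the authors' scale, 9 intervals exclude 0.

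On the authors' scale, the 9 members whose 95% intervals lay wholly above no change came from both subunits. They were Mrps14, Mrps24, Mrps5 and Mrps34 of the small subunit, Mrpl17, Mrpl18, Mrpl42 and Mrpl36 of the large subunit, and Mrps36. No interval lay wholly on the lower side on that scale. Both statements depend on the zero point. Lower bounds were 0.18 for Mrps14 and from 0.0084 (Mrpl42) to 0.083 (Mrpl17) for the others, and the upper bound of Mrpl28 was 0.062. The centring with identical rows counted once lowers each of these by 0.15.

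Other rules for a call left few members or none on the higher side. At an adjusted p under 0.1, 2 members were called higher, against 3.73% of all genes, and 0 lower, against 5.29%. At 0.01 the members called were 0 higher, against 0.579%, and 0 lower, against 1.2%. With a t distribution of 6 degrees of freedom no gene of the table was called in either direction, and with an estimated null width 0 members were called, against 0.0135% of all genes higher and 0.0202% lower. These rules keep the authors' zero point, apart from the estimated null, whose centre was also estimated, at a Wald statistic of 0.0043. With the count-weighted mean of all genes at 0 and identical rows counted once, 0 members were called higher, against 0.747%, and 1 lower (Mrpl28, adjusted p 0.0471), against 12.9%. With every row counted, the repeated rRNA rows included, 0 members were called higher, against 0.566%, and 34 of 77 lower, against 52.9%. With a trend on transcript length alone removed, 2 members were called higher, against 1.84% of protein-coding genes, and 0 lower, against 2.92%. With one on GC content alone removed, 0 were called higher, against 1.21%, and 0 lower, against 2.69%.

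The precision of the table sets what these values can show. The SEs of the members ran from 0.087 (Mrps5) to 0.28 (Mrpl14), with a median of 0.14 against 0.17 over all genes. The smallest Wald statistic called in the table was 3.00, so that a member of median SE needed a log2 fold change of 0.41, or 1.33-fold, to be called. On the authors' scale, the 95% intervals of 63 of 77 members lay within 1.5-fold of no change in either direction. Those of all 77 lay within 2-fold. The highest upper bound was 1.86-fold (Mrps34) and the lowest lower bound 0.546-fold (Mrpl27). These bounds, and the counts within 1.5-fold and 2-fold, depend on the zero point. The centring with identical rows counted once lowers each bound by 0.15 on the log2 scale, where the lower bound of Mrpl27 was -0.87. The bounds also assume a normal distribution and leave out the wider estimated null (SD 1.45).

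Mrps14, a protein of the small subunit's head, was the one member called. Mrps14 (Entrez 64659) lies on chromosome 1 (160195215 to 160201186 in GRCm38.p6) and had a mean count of 697, among the highest of the family. It was 1.31-fold higher in CreER/flox cells (95% interval 1.13 to 1.51, log2 fold change 0.39, SE 0.11, adjusted p 0.0118) per the authors' deposited table. No annotated exon of another gene overlaps it. The call ended under a t distribution with 6 degrees of freedom (adjusted p 0.439), with the null width estimated from the data (0.561), with the count-weighted mean of all genes at 0 (0.116 with identical rows counted once, 0.970 with every row), and after removal of a trend fitted on length, GC content and abundance (0.241). With the trend on GC content alone removed it was 0.0659.

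Among the other 25 small-subunit genes, none was called, and 23 had values above 0. Those with a bacterial counterpart (16 genes with Mrps14, median 0.14) included Mrps24 and Mrps5, which line the channel where mRNA enters. Mrps24 stood at 0.33 (SE 0.15, adjusted p 0.166, mean count 254) per the authors' deposited table. Its exons overlap those of Urgcp on the same strand, so shared reads could count for it. Mrps5, the most abundant member by mean count (1472), had a value of 0.18 (SE 0.09, adjusted p 0.213) per the authors' deposited table. These values lie on the same side as that of Mrps14 but did not pass the test. The 2 members of this class below 0 were Mrps28 (-0.20, SE 0.23, adjusted p 0.704, mean count 74.5) and Mrps9 (-0.07, SE 0.11, adjusted p 0.798, mean count 687) per the authors' deposited table. The decoding protein gene Mrps12 had a value of 0.17 (SE 0.17) per the authors' deposited table, and the remaining conserved members ranged from 0.10 (Mrps15) to 0.26 (Mrps18c).

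All 10 mitochondria-specific small-subunit genes had values above 0 on the authors' scale, with a median of 0.15, and none was called. The centring with identical rows counted once lowers each of these values by 0.15. Mrps34, in which human mutations cause Leigh syndrome, had the highest fold change of all members (0.46, SE 0.22, adjusted p 0.230, mean count 93.0) per the authors' deposited table. Its exons overlap those of Nme3 and, on the other strand, of Mapk8ip3, so shared reads could count for it. Mrps35 had a value of 0.23 (SE 0.13, adjusted p 0.291) and Mrps33 of 0.28 (SE 0.18, adjusted p 0.415) per the authors' deposited table. Mrps22, the second most abundant member by mean count (1188) and a human disease gene, stood at 0.10 (SE 0.09, adjusted p 0.596) per the authors' deposited table. The lowest of this class was Mrps27, an RNA-binding pentatricopeptide repeat protein, at 0.045 (SE 0.14) per the authors' deposited table.

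Of the 50 large-subunit genes, 40 had values above 0 and none was called, with a median of 0.09. With the trend on length, GC content and abundance removed, the large-subunit median was 0.06 with 33 of 50 above 0, and that of the small subunit 0.12 with 23 of 26 above 0. The difference between the subunits (medians of 0.09 and 0.14 on the authors' scale) was not tested. Proteins that surround the tunnel through which the new chain leaves were placed in one list, and 7 of its 8 genes had values above 0. Mrpl17 had the highest value of that list (0.33, SE 0.13, adjusted p 0.0990, mean count 381) per the authors' deposited table. Its adjusted p was 0.0495 when a trend on transcript length alone was removed, the one alternative fit in which it passed at 0.05. The length used there was that of its longest annotated transcript, 7300 bases, against a median of 1316 for members. The adjusted p was 0.139 with the full trend, 0.187 with GC content alone and 0.135 with mean count alone removed. Mrpl44, a relative of RNase III enzymes, stood at 0.21 (SE 0.14), and Mrpl45, which tethers the ribosome to the inner membrane, at 0.09 (SE 0.10) per the authors' deposited table. Mrpl47 was the exception at -0.05 (SE 0.14) per the authors' deposited table.

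The stalk, where translation factors bind, mostly had values of the other sign, a difference that was not tested. Of the 5 genes listed with it, 4 had values below 0 and none was called. Mrpl11 stood at -0.12 (SE 0.16), Mrpl10 at -0.11 (SE 0.17), Mrpl12 at -0.06 (SE 0.12) and Mrpl54 at -0.05 (SE 0.17) per the authors' deposited table. Each of these is smaller than its SE. Mrpl53, the least abundant member (mean count 64.5), had a value of 0.33 (SE 0.25, adjusted p 0.495) per the authors' deposited table.

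Elsewhere in the large subunit, Mrpl18, a protein of the central protuberance, had a value of 0.28 (SE 0.11, adjusted p 0.105, mean count 453) per the authors' deposited table. Mrpl36 (0.38, SE 0.19, adjusted p 0.234), Mrpl33 (0.40, SE 0.21, adjusted p 0.260) and Mrpl15 (0.31, SE 0.16, adjusted p 0.259) had higher folds with wider errors in the authors' deposited table. None of these 4 passed the test. The exons of Mrpl18, Mrpl36 and Mrpl33 overlap those of Tcp1, Ndufs6 and Gm43809. Of the mitochondria-specific proteins, 19 of 21 had genes with values above 0, led in p by Mrpl42 (0.25, SE 0.12, adjusted p 0.232) and Mrps30 (0.24, SE 0.13, adjusted p 0.277) per the authors' deposited table. Mrpl58, which frees chains from stalled ribosomes, had a value of 0.11 (SE 0.14) per the authors' deposited table.

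The lowest values were all in conserved proteins, and none was called. Mrpl27, whose bacterial counterpart lies at the peptidyl transferase centre, had a value of -0.35 (SE 0.26, adjusted p 0.493, mean count 77.9) per the authors' deposited table. Mrpl34 stood at -0.25 (SE 0.21, adjusted p 0.573, mean count 78.4) and Mrpl28 at -0.16 (SE 0.11, adjusted p 0.464, mean count 392) per the authors' deposited table. With Mrps28, those at the low end were mostly among the least abundant members, where the SE is widest. At the high end, Mrps34 also had a low mean count (93.0, SE 0.22), while Mrps14 did not (697, SE 0.11). The exons of Mrpl27 overlap those of Eme1 on the other strand.

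**Figure D2:**
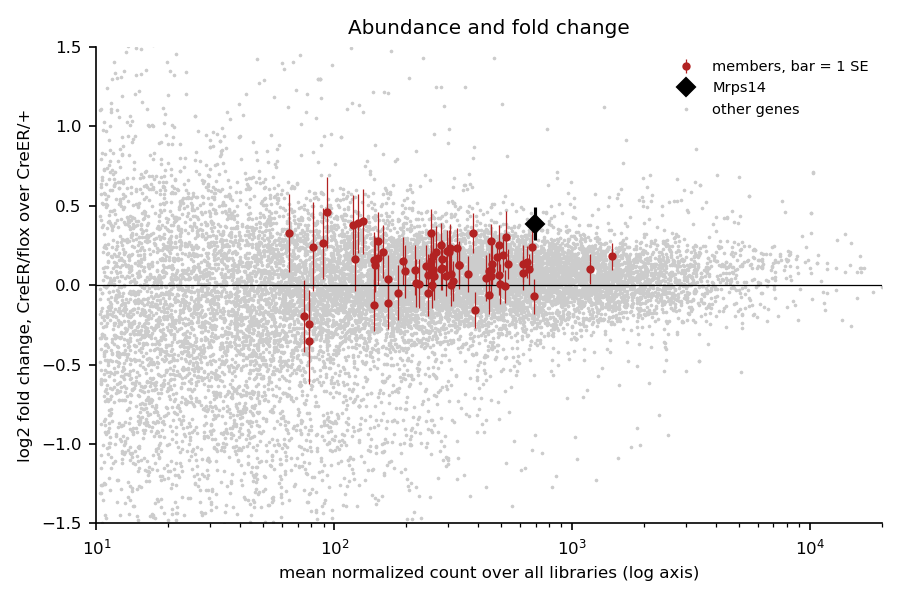
Mean normalized count over all libraries (log axis) against the log2 fold change of CreER/flox over CreER/+, with members in colour (bars, 1 SE), Mrps14 as a diamond and other genes in grey. Members lie between mean counts of 64.5 and 1472, mostly just above 0 on the authors' scale; with the count-weighted mean of all genes at 0, 32 of 77 (identical rows counted once) or 4 of 77 (every row) are above it. The axes leave out genes beyond a log2 fold change of 1.5 either way and the most abundant genes.

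The family was expressed at moderate levels, with mean counts from 64.5 to 1472. Mean counts had a median of 283, against 192 for all genes, and 57 of 77 members lay above that of all genes. Per kilobase of the longest annotated coding transcript, the members had a median mean count of 203, with an interquartile range of 103 to 306, against 73.0 for protein-coding genes of the table. Mrpl52 (1102 per kilobase) and Mrps22 (992 per kilobase) were at the top of this scale, and Mrps17 (31.8 per kilobase) at the bottom. These levels per length fall short where a shorter transcript is the main one, and the longest of Mrps17 has 5061 bases. Cytoplasmic ribosomal protein genes had a median of 3829 per kilobase on the same scale.

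Proteins of the mitochondrial ribosome that carry other names were spread on both sides of 0. In the authors' deposited table, Gadd45gip1 (0.17, SE 0.13) and Ptcd3 (0.14, SE 0.10) were above 0, and Aurkaip1 (-0.0029, SE 0.11), Chchd1 (-0.02, SE 0.20) and the GTP-binding Dap3 (-0.09, SE 0.12) below. None of these 5 was called. Mrpl32, the gene without a symbol, had a value of 0.31 (SE 0.21, adjusted p 0.434) and Mrps36 of 0.39 (SE 0.19, adjusted p 0.220) per the authors' deposited table.

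Factors that serve the mitochondrial ribosome were compared by the same counts. Of 26 genes for ribosome assembly and rRNA modification, 15 had values above 0 with a median of 0.10 (0.06 with the trend removed), and none was called. The smallest p in this list was that of the GTPase gene Noa1 (0.32, SE 0.13, adjusted p 0.125), followed by Rbfa (0.21, SE 0.09, adjusted p 0.177) per the authors' deposited table. Of 17 measured mitochondrial translation factors, 14 had values above 0 with a median of 0.12, and none was called. With the trend removed, 11 of these 17 were above 0 and the median was 0.06. Guf1 (0.32, SE 0.13, adjusted p 0.130) and the initiation factor gene Mtif3 (0.27, SE 0.13, adjusted p 0.206) led this list in the authors' deposited table. Tufm, which brings tRNA to the ribosome, had a value of 0.02 (SE 0.08) per the authors' deposited table.

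Mitochondrial tRNA synthetase and amidation genes had 11 of 20 values above 0, a median of 0.01 and none called, and with the trend removed 13 of 20 were above 0 with a median of 0.07. Lars2 had an outlying mean count of 55932 at a value of 0.56 (SE 0.32, adjusted p 0.327) per the authors' deposited table. Among 11 genes that transcribe or replicate mitochondrial DNA, 10 had values above 0 with a median of 0.17, and Polg, the catalytic subunit of the mitochondrial DNA polymerase, rose (0.35, SE 0.09, adjusted p 0.00857) per the authors' deposited table. Polg stayed called after the trend on length, GC content and abundance was removed (adjusted p 0.000940), and lost the call under a t distribution with 6 degrees of freedom (0.439) and with an estimated null width (0.531). With the count-weighted mean at 0, its value was 0.20 with identical rows counted once (adjusted p 0.131) and -0.03 with every row (0.774). The RNA polymerase gene Polrmt was the one below 0 (-0.13, SE 0.11) per the authors' deposited table. Of 8 measured regulators of mitochondrial genes, 4 had values above 0 and none was called. Nrf1 stood at -0.05 (SE 0.10), Gabpa at 0.09 (SE 0.09), Yy1 at 0.09 (SE 0.11) and Gabpb1, which binds the GABPA protein, at 0.36 (SE 0.15, adjusted p 0.119) per the authors' deposited table.

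Larger groups of translation and respiration genes were set beside the members. Of 83 cytoplasmic ribosomal protein genes, 78 had values above 0, with a median of 0.17 and 13 called higher, where 1.94% of all genes were. With the trend removed, their median was 0.03 and 56 of 83 were above 0. Of 36 complex I subunit genes, 27 had values above 0, with a median of 0.11 and none called. With the trend removed, their median was 0.08 and 21 of 36 were above 0. Differences between these groups and the members were not tested.

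**Figure D3:**
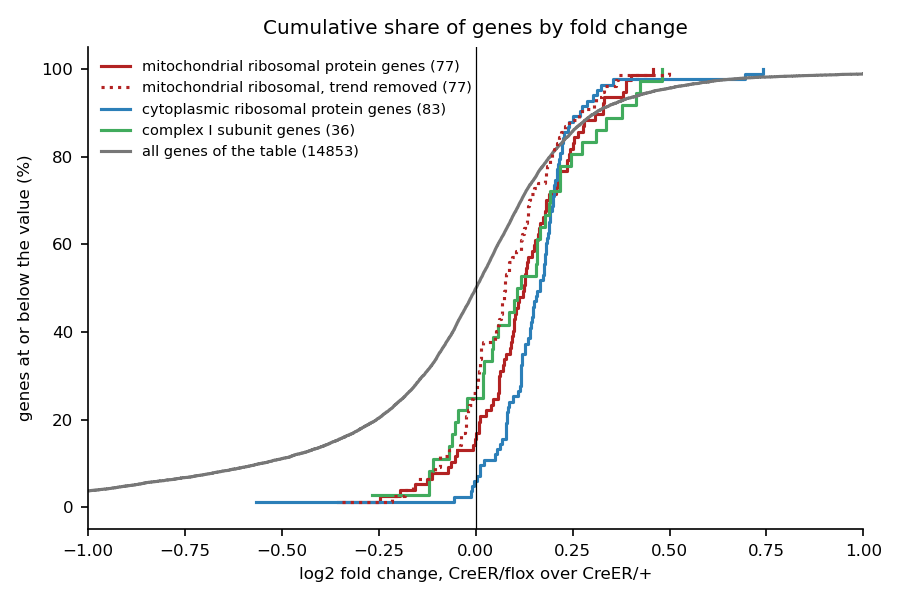
Share of genes at or below each log2 fold change of CreER/flox over CreER/+, for members, cytoplasmic ribosomal protein genes, complex I subunit genes and all genes of the table, and for members after the trend was removed (dotted). On the authors' scale 84.4% of members and 50.1% of all genes lie above 0 (41.6% of members with the count-weighted mean of all genes at 0 and identical rows counted once, 5.19% with every row). The horizontal axis ends at 1 either way.

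Transcript properties move with the fold change in this table, so the members were described against them. Longest transcripts of members had a median of 1316 bases and 5 exons, against 3105 bases and 9 exons for protein-coding genes, and their GC content was 50.1%, as it was for those genes. Over 13693 protein-coding genes, which share the same libraries, Spearman's rho with the fold change was -0.093 for transcript length, -0.17 for GC content and 0.21 for mean count. Over the 77 members it was -0.016, -0.28 and -0.026. Members were mostly above 0 in each of 4 length classes on the authors' scale. Up to 1000 bases, 20 of 24 members had values above 0, against 55.4% of other protein-coding genes, and over 4000 bases 8 of 9 did, against 43.0%. With the fitted trend removed, 57 of 77 members (74.0%) were above 0, against 50.9% of protein-coding genes, their median was 0.074, and none was called, against 0.635% called higher and 2.28% called lower over protein-coding genes.

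Many members face another gene. Within 1000 bases of their starts, 32 of 77 (41.6%) had a protein-coding neighbour on the opposite strand that is read away from them, against 15.7% of protein-coding genes of the table. The median distance between the starts was 140.5 bases in GENCODE M21. Of the 31 neighbours with a row, 18 had values above 0, with a median of 0.029, while 26 of the 31 entries for members in these pairs were above 0. One pair joins members, Mrpl46 (0.06, SE 0.14) and Mrps11 (0.13, SE 0.17) per the authors' deposited table. It is counted once from each side, so each of these genes also enters as a neighbour. Mrpl36 and Ndufs6 of complex I, whose starts are 29 bases apart, had like values of 0.38 (SE 0.19) and 0.34 (SE 0.13) per the authors' deposited table. Mrpl18 faces the chaperonin gene Tcp1, which had a value of 0.14 (SE 0.07) per the authors' deposited table. Mrpl48 faces Rab6a, the one neighbour called (0.33, SE 0.10, adjusted p 0.0381) per the authors' deposited table. In each of these named pairs the exons of the genes overlap, so shared reads could count for either gene. The part of such reads in these values was not tested.

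One neighbour is on the list of spermatid genes. Mrpl9 (0.06, SE 0.13) faces that gene, Oaz3, with a value of -0.54 (SE 0.28), and Mrpl10 (-0.11, SE 0.17) faces Lrrc46 at -0.56 (SE 0.24) per the authors' deposited table. The exons of Mrpl9 and Oaz3 overlap. In all, 32 members share exon sequence with another annotated gene, 28 of them with one on the opposite strand, and the strand setting of the authors' counting could not be taken from the sources used here. Of the 45 members that share none, 38 had values above 0, and their median was 0.12.

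**Figure D4:**
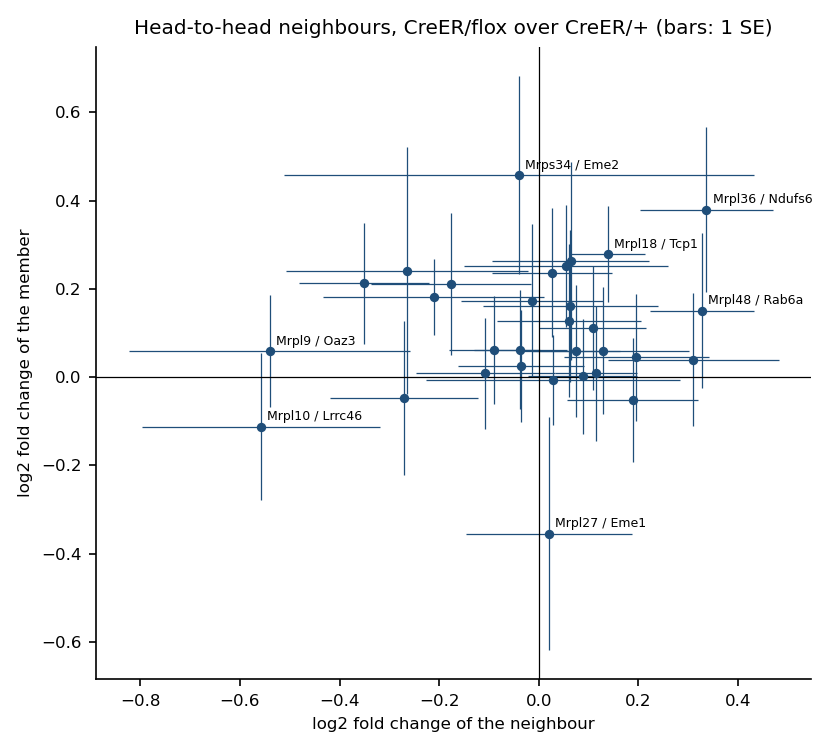
Log2 fold change of CreER/flox over CreER/+ for members (vertical) and for the protein-coding genes that face them within 1000 bases (horizontal), with bars of 1 SE and 31 points. The pair of Mrpl46 and Mrps11 is drawn once from each side. At 15 points both values lie above 0, and at 11 the member is above 0 and the neighbour below.

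Promoter motifs were counted in the windows shown above, using the first listed start of each gene, for 68 members and 11077 protein-coding genes of the table. ETS motifs were present in 36.8% of members against 17.4% of all, and YY1 motifs in 16.2% against 4.44%. NRF1 motifs were present in 17.6% against 10.1%, SP/KLF motifs in 48.5% against 62.1%, and TATAAA in 5.88% against 7.20%. E-boxes (CACGTG) were in 7.35% against 10.4%, CCAAT in 38.2% against 39.9%, and a CGCG palindrome in 1.47% against 1.11%. Both strands were searched, and motifs may overlap. Median log2 fold changes of members were 0.15 with an ETS motif and 0.13 without, 0.13 with and 0.13 without a YY1 motif, and 0.13 with and 0.13 without an NRF1 motif. A match describes letters and does not show that a factor binds.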

How the data were processed

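Members and gene lists were chosen with earlier results of these data known. Per the labels' protocols, total RNA libraries were made with a stranded low-input kit. Tools per the submitters' processing notes were DESeq2, Bowtie, Bowtie2 2.0.0-6, TopHat2 2.0.4 and Trim Galore, and the builds mm10 and GRCm38. For the read counter, its strand setting and the annotation, nothing is stated in the sources used here. The authors deposited, per the file headers, a mean normalized count signal, log2 fold changes with SEs, the Wald score, and p-values with adjusted p-values. The score matched fold change over SE to within 2.58e-07, and Benjamini-Hochberg adjustment of the p-values gave the adjusted ones to within 0.426%.

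No model was refitted, and DESeq2 was run only by the authors. Intervals of 95% are the fold change with its SE under a normal distribution. Entrez IDs were matched to RefSeq for all 77 members, and transcripts came from GENCODE M21. The trend was a robust cubic fit of the fold change on log2 length, GC content and log2 mean count over protein-coding genes, with SEs kept. Members named by rule were those called, and the 8 smallest p values, 3 largest folds and 3 extreme mean counts on each side. Any whose call changed under an alternative was named too. In other lists, called genes or up to 2 of smallest p were named. Tufm, Polrmt, Nrf1, Yy1, Kit, the spermatogonial genes of lowest and highest count and the neighbours were named after their values were seen. So were Mrpl36, Mrpl15, Mrps33, Mrps12, Mrpl58 and other members given only as ends of a range or in neighbour pairs. Alternatives were other thresholds, count minimums of 50 and 100, reference distributions, centrings, membership and overlaps. Steps were tested on simulated data. Python 3.11.15, numpy 2.4.6, pandas 2.3.3, scipy 1.17.1 and matplotlib 3.10.9 were used.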

Additional observations from a re-analysis of the deposited data

How the results depend on the processing

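With 1 member called higher and 0 lower in the authors' deposited table, the count called higher was 2 at an adjusted p under 0.1, 0 at 0.01 and 9 at an unadjusted p under 0.05. It was 0 with a t distribution of 6 degrees of freedom, with an estimated null (SD 1.45), with the trend on length, GC content and mean count removed, and with GC content alone, and 2 with length alone. The members' median of 0.12 was 0.074 with the full trend removed and 0.083 with the count-weighted mean of protein-coding genes at 0. With the count-weighted mean of all genes at 0, a shift of 0.38, the median was -0.26, 5.19% of members were above 0, and 0 members were called higher and 34 lower, as were 52.9% of all genes. In that weighting 6 rRNA rows with identical values, 1 measurement counted 6 times, hold 21.2% of the summed mean counts. Counted once, as are all rows with identical values, they hold 4.30%, the shift is 0.15, the median -0.024, 41.6% of members are above 0, and 0 are called higher and 1 lower, as are 12.9% of all genes. Members above 0 in the deposited table that were called lower with every row counted had these adjusted p values: Mrpl13 0.0119, Mrpl2 0.00821, Mrpl20 0.0402, Mrpl22 0.0307, Mrpl24 0.0204, Mrpl3 0.0351, Mrpl38 0.00977, Mrpl39 0.0121, Mrpl4 0.0136, Mrpl41 0.0348, Mrpl43 0.00935, Mrpl45 0.00956, Mrpl46 0.0474, Mrpl49 0.0302, Mrpl55 0.0304, Mrpl57 0.0433, Mrpl9 0.0238, Mrps18b 0.0199, Mrps22 0.00658, Mrps25 0.0179, Mrps27 0.0373, Mrps5 0.0399. Count minimums of 50 and 100, median centring, protein-coding centring, a trend on mean count alone, added or removed ribosomal genes, and leaving out members that overlap small RNAs or other exons left 1 called higher and 0 lower. Over all genes or protein-coding genes the shares called were 2.66% higher and 4.07% lower at a minimum of 50, 2.94% and 3.53% at 100, 1.91% and 3.43% with median centring, 1.02% and 3.51% with the mean count trend removed, and 1.22% and 4.58% with protein-coding centring, and 1.94% and 3.42% for the choices of members. The single-property trends, the protein-coding centring, the single count of identical rows, the removal of Mrps36 and that of overlapping exons were chosen after seeing the data. No paired analysis was possible because values per library were not used here, and for the same reason no library was left out in turn. Nothing in the labels says that the samples came from separate animals, so the p-values may measure technical spread.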
